A study of Mus musculus with 18 samples.

Results

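Liver RNA of the 6 mice that received only tap water was described here, without any statin-treated mouse. These vehicle mice were 6 of the 18 in the series, the others having been dosed with rosuvastatin or atorvastatin. All 6 were female C57BL/6 mice, 16 weeks old, that ate a diet with 1% cholesterol for 1 week, received 1 oral dose of tap water and were killed 24 h later; the left lateral lobe of each liver gave the RNA. No mouse on normal chow was used here, so the diet is common to all 6 and no value below measures its effect. Each array, of the focused Steroltalk v2 design, carried the RNA of 1 mouse in Cy3 (the sample channel) and in Cy5 a reference pooled from all samples of the experiment. The features were all 289 gene probes of the array, that is, every probe except the calibration and negative controls, and 3 measures were taken for each: whether it stood above its local background, the rank of its sample intensity after background subtraction, and the standard deviation (SD) between mice of the log2 of sample divided by reference.

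The liver is the main site of cholesterol synthesis, of its conversion to bile acids and of its secretion into bile. In hepatocytes, sterols hold the transcription factors of the SREBP family in the endoplasmic reticulum through Scap and the Insig proteins, while oxysterols activate the liver X receptors, which raise the sterol exporters Abcg5 and Abcg8. Serum amyloid A proteins are made in the liver during the acute phase response to cytokines.

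Promoter windows, from 250 bases before to 50 bases after the start site, were read from RefSeq (GRCm38.p6, 5′ to 3′ on the strand of the gene). They are shown for some of the 15 genes whose ratios spread most between the mice, with at most 1 motif chosen for each gene. Saa1 (chr7:46742931-46743230, minus strand) and Saa2 (chr7:46751583-46751882, plus strand) are neighbours whose windows aligned with 95.3% identity (287 of 301 columns), and their probes may not separate the 2 transcripts. The window of Saa3 (chr7:46715627-46715926, minus strand) aligned with that of Saa1 at 51.3% identity. Capitals mark the letters TTGCNNAA, a form of the C/EBP motif, searched on both strands and held by 10.8% of all 32851 promoter windows.
Saa1: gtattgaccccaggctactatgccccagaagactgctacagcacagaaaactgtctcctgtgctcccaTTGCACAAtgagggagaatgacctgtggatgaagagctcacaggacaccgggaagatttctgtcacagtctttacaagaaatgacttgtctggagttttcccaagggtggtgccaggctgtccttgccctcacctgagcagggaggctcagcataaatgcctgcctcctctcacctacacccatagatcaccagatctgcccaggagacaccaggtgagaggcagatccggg
Saa2: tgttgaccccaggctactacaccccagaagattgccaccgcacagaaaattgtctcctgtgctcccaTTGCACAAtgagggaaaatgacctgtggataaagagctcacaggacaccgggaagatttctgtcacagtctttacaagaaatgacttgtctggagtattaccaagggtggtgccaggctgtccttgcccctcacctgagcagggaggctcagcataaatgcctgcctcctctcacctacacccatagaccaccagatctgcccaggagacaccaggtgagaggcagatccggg
In Hmgcs1, the synthase that makes HMG-CoA (chr13:119690101-119690400, plus strand), capitals mark TCACNCCAC, a form of the sterol regulatory element, searched on both strands and held by 1.24% of the windows. Other synthesis genes, some with wider spreads, are not shown for this element.
Hmgcs1: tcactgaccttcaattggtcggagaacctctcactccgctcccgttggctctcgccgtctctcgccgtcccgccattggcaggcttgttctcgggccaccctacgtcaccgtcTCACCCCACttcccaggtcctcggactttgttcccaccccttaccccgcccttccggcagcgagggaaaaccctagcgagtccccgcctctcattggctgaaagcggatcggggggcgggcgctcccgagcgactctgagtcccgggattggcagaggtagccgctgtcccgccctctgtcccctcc
In Cyp26a1, which breaks down retinoic acid (chr19:37697558-37697857, plus strand), capitals mark AGTTCA repeated after any 5 bases, a form of the direct repeat known for retinoic acid receptors. It was found here on the reverse strand and was held by 0.0244% of the windows when both strands were searched. Other spellings of the repeat were not searched, so this share does not cover them.
Cyp26a1: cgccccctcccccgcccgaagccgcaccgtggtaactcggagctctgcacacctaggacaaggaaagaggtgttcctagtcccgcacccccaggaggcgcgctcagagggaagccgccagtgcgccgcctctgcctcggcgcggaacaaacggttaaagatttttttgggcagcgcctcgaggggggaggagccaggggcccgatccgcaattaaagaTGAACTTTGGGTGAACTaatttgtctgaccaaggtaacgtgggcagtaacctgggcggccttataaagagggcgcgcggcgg
Abcg5 and Abcg8, which pair to form the canalicular sterol exporter, are transcribed away from each other. A start of Abcg8 lies 110 bases from that of Abcg5, so that the window of Abcg5 (chr17:84682962-84683261, minus strand) overlapped this Abcg8 window by 209 bases. Another window of Abcg8 (chr17:84676052-84676351, plus strand) did not overlap it. The window of Abcg5 is shown because both probes varied together, with no motif searched in it.
Abcg5: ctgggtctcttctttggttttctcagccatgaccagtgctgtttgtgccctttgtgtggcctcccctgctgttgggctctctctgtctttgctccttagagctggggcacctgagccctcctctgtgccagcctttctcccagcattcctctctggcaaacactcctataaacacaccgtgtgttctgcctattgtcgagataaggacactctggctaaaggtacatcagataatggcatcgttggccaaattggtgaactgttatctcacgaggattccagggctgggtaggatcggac
A match of letters is a description of the window and not a measured binding site.

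Over the 6 arrays the median sample intensity of gene spots was 219.5 to 376 before subtraction and the median local background was 73 to 103. A probe counted as above background on an array when at least 50% of its spots were brighter than the local background by more than 2 SDs of that background, and 164 to 218 probes met this. Of the 144 negative-control spots, 0 to 8 per array met the same limit. The array of vehicle 5 stood apart. It had the brightest sample channel and the most probes above background. After loess, the median distance of its probes from their mean over the other mice was 0.33 on the log2 scale, against 0.13 to 0.20 elsewhere. For this reason the summary measures of spread, and the SDs that moved by more than 1.5 times, are also given without it. The labels give no reason for its distance, and whether it lies in the liver or in the array was not tested.

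Of the 289 gene probes, 161 (55.7%) were above background on all 6 arrays, 60 on 1 to 5 arrays and 68 (23.5%) on none. Probes that all 6 arrays measured included all 9 hepatocyte markers on the array, among them Alb (serum albumin), Apoa1 (the main protein of HDL) and Hnf4a, a nuclear receptor that maintains hepatocyte identity. They also included all 5 genes known to be higher in female than in male mouse liver (Cyp2b9, Cyp2b13, Cyp3a41a, Cyp2a4 and Cyp17a1). Of the 2 genes on the array listed as higher in males, Cyp7b1 was above background on all 6 arrays and Slco1a1 on 2. The array held none of the listed macrophage or cholangiocyte markers, and the 2 probes of a macrophage gene outside the list, the scavenger receptor Msr1, were above background on no array (this gene was looked up after the other values were seen), so other cell types could be judged only in part. Of 5 adipocyte markers 1 (Slc2a4) was above background throughout, of 5 adrenal and gonad markers 1 (Cyp21a1), and of 2 endothelial and stellate markers 0. Lep, Star, Cyp19a1 and Cyp11b2 were above background on no array. As the samples were whole tissue, fewer cells of a type and less RNA per cell cannot be told apart.

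**Figure D1:**
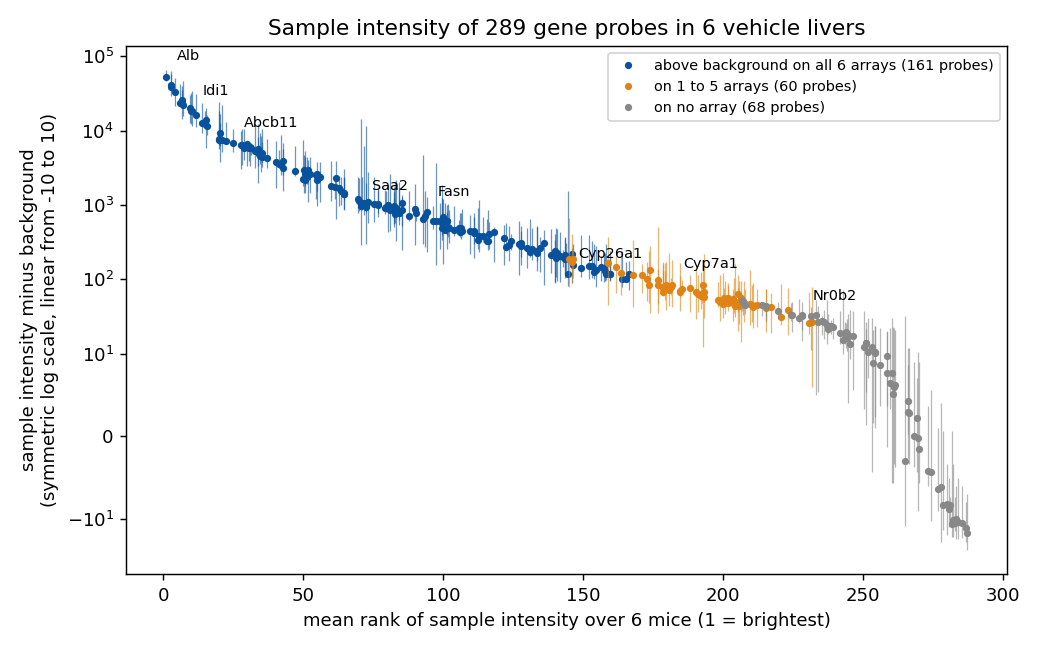
Background-subtracted sample intensity (symmetric log axis) of the 289 gene probes against their mean rank over the 6 vehicle mice. Points are medians over mice, lines run from the lowest to the highest mouse and colours give the number of arrays above background; the 161 probes above background on all 6 arrays fill the bright end, and the longest lines there belong to such genes as Saa2 and Cyp26a1.

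Detection differed between the gene lists, where 161 of all 289 gene probes (55.7%) were above background on every array. A probe below background does not show that its transcript was absent. All 11 acute phase and complement genes, all 4 serum amyloid A genes and all 3 lipogenic genes were above background on every array, as were 15 of 17 drug-metabolising cytochromes P450, 15 of 18 cholesterol synthesis genes and 13 of 16 sterol and bile acid transporters. The SREBP pathway with LDL uptake (4 of 8) and bile acid synthesis (4 of 6) were nearer to the share of all probes. Nuclear receptors and their coregulators were seldom bright: 9 of 27 were above background on all arrays and 8 on none, the latter with Vdr (vitamin D receptor) and Esr1 (oestrogen receptor alpha). Among regulators of sterol and bile acid genes, Nr1h4 (the bile acid receptor FXR) had rank 48 and was above background in every mouse, whereas Nr0b2 (SHP, which represses bile acid synthesis) was above background in none. The clock genes split too, since Clock, Arntl and Cry1 were above background on all arrays and Per1, Per3, Cry2 and Dbp on none. The other 2 of that list were above background on some arrays. Cyp7a1, the rate-limiting enzyme of bile acid synthesis, was above background in 3 of the 6 mice, with intensities of 94.3, 42.0, 75.3, 44.0, 126 and 185 in vehicle 1 to 6.

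**Figure D2:**
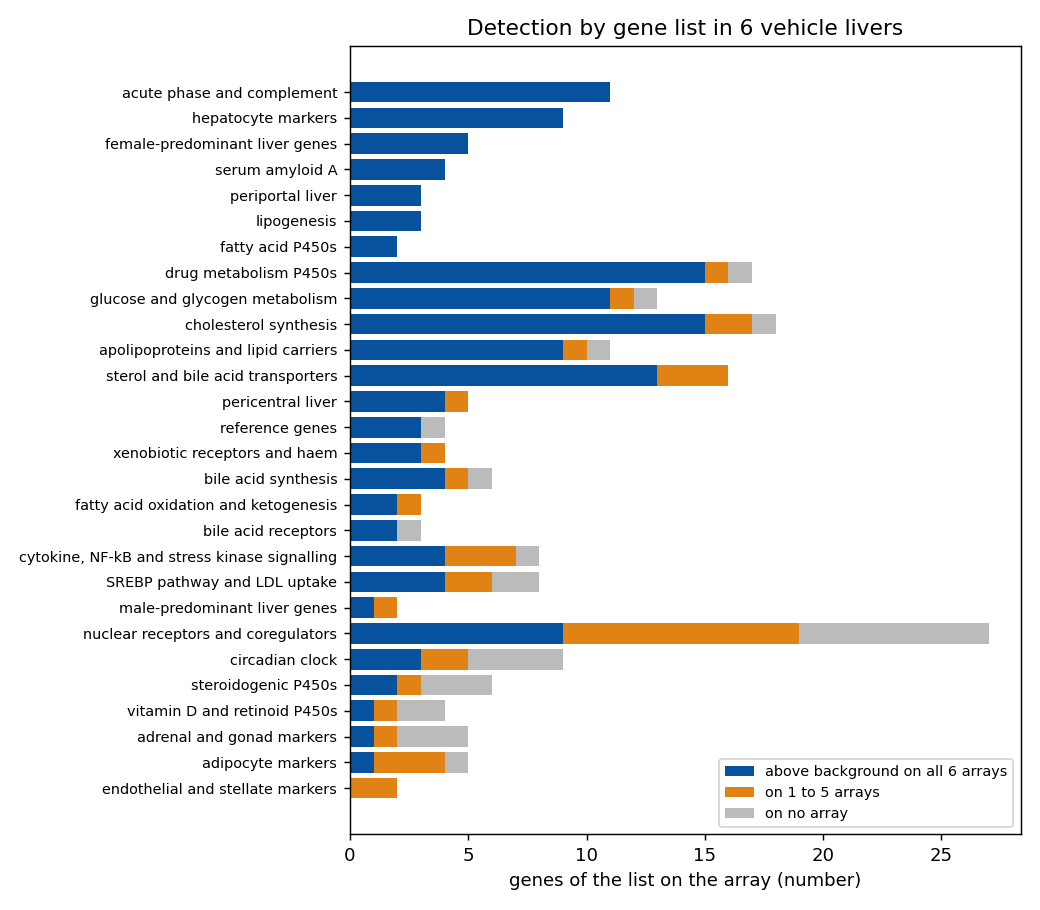
Number of genes of each list on the array, divided by whether their probes were above background on all 6 arrays, on 1 to 5 or on none. All 11 acute phase and complement genes were above background throughout, against 9 of 27 nuclear receptors and coregulators (all gene probes: 161 of 289).

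A few bright probes held much of the signal. The 10 brightest probes held 42.2% to 49.4% of the summed intensity of an array and the 30 brightest 74.2% to 76.9%. The order was alike in all mice, with Spearman coefficients between pairs of arrays of 0.956 to 0.990 across the 289 probes, which are not independent replicates. In all, 7 probes were among the 10 brightest of every mouse and 23 among the 30 brightest. These are ranks of probe brightness, which depends on probe and labelling as well as on the transcript: probes for the abundant apolipoproteins Apoa2 (rank 82) and Apoc3 (rank 91) were dim.

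Alb was the brightest probe. Its intensities were 56199, 50338, 49392, 46519, 65462 and 63628 in vehicle 1 to 6, and it ranked 1 or 2 in each mouse. In vehicle 5 its sample channel was saturated, so that the value there is a lower bound. Other plasma proteins among the 15 brightest were Saa4 (rank 6), the constitutive serum amyloid A, complement C3 (rank 8), Apoa1 (rank 10), Orm1 (rank 12), an acute phase glycoprotein, and Apob (rank 13), the protein of VLDL and LDL. Cytochromes P450 held 4 places: Cyp3a11 shared rank 2 with Scd1, and Cyp3a41a, Cyp2e1 and Cyp1a2 had ranks 4, 9 and 15. The remaining places went to Scd1, the desaturase that makes oleate, to Scp2 (rank 5), a sterol carrier, to the organic anion importer Slco1b2 (rank 7), to Idi1 (rank 11) of the cholesterol pathway and to the glycolytic enzyme Gapdh (probe 1, rank 14). In the reference channel 13 probes reached saturation on at least 1 array, and Alb and Cyp3a11 on all 6, so that the reference is only a lower bound there. Saturated reference spots lay mostly on the arrays of vehicle 1, 2 and 3: 11 to 13 probes had one on each of these, 6 on that of vehicle 4, 3 on that of vehicle 5 and 2 on that of vehicle 6.

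For the 161 probes above background on all arrays the SD of the log2 ratio over the 6 mice had a median of 0.25, with quartiles of 0.16 and 0.37. The range ran from 0.07 (Sp1) to 1.67 (Saa2). The highest mouse exceeded the lowest by more than 2-fold for 42 probes and by more than 4-fold for 14, and the median of this range was 1.56-fold; without vehicle 5 these were 19 probes, 5 probes and 1.40-fold. An SD over 0.5 was found for 22 probes and an SD over 1 for 7 (4 without vehicle 5). Replicate spots of a probe on the same array differed by a median SD of 0.11. For 132 of the 161 probes the SD over the 6 arrays was more than 2 times what the spots alone would give to their mean. As each mouse had 1 array, differences in labelling or hybridisation between arrays are part of this spread. They cannot be told apart from differences between mice.

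The reference channel measured the same pooled RNA on every array. Its normalised level was computed together with the sample channel, so differences between mice can enter it in part. Effects shared by both channels of a spot stay in it but cancel in the ratio, so it is not a floor for the ratio. After normalisation the SD of the reference channel had a median of 0.22, against 0.30 in the sample channel. The sample channel spread more for 120 of the 161 probes and by more than 2 times for 41.

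Vehicle 5 was at one extreme for many of the probes. It was the highest mouse for 52 of the 161 probes (32.3%) and the lowest for 53 (32.9%). These shares depended on the scaling. After a shift on the spike-ins vehicle 6 was highest for 83.9% and vehicle 3 lowest for 44.1% (vehicle 5: 11.8% and 21.7%). In the deposited table, over 146 probes, they had 79.5% and 52.1% (vehicle 5: 17.1% and 15.1%). After loess and without vehicle 5 the median SD was 0.20, and 9 probes in place of 22 had an SD over 0.5.

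**Figure D3:**
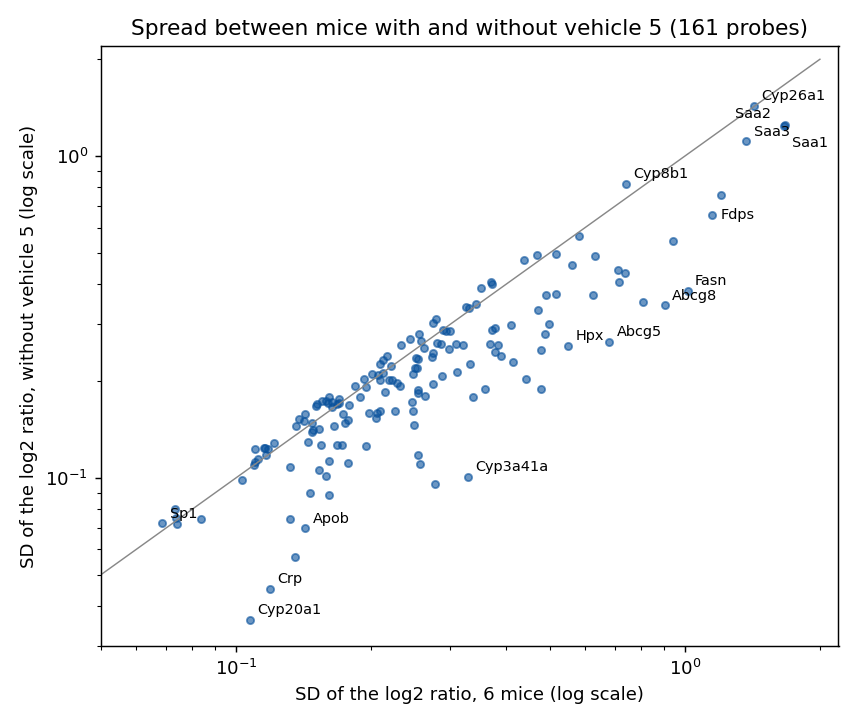
SD of the log2 ratio over all 6 vehicle mice (x, log scale) against the SD without vehicle 5 (y, log scale) for 161 probes, with the line of equality. Cyp26a1 and Cyp8b1 lie on or above the line, while Fasn, Abcg5 and Abcg8 fall far below it; the SD of Fasn was 1.01 with and 0.38 without vehicle 5.

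Of the 4 widest spreads 3 belonged to serum amyloid A genes. The log2 ratios of Saa2 were -4.14, -2.50, -5.60, -4.82, -1.45 and -5.41 in vehicle 1 to 6, an SD of 1.67 and a 17.9-fold range. Its background-subtracted intensities were 1151, 2883, 293, 779.7, 14188 and 739. Every vehicle mouse lay below the pooled reference, which also held RNA of treated mice. Vehicle 5 was nearest to it, vehicle 2 came next, and vehicle 3 was farthest below.

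Saa1 followed the same order, with -4.02, -2.54, -5.56, -4.91, -1.44 and -5.39 (SD 1.67). For Saa3, the form made also outside hepatocytes, the ratios were -3.19, -2.02, -4.64, -4.15, -1.41 and -4.60 (SD 1.37), again with vehicle 5 highest, vehicle 2 next and vehicle 3 lowest. The spread stayed wide without vehicle 5, when the SDs were 1.24 for Saa1, 1.25 for Saa2 and 1.11 for Saa3. For Saa1 and for Saa2, 1 reference spot was saturated, on the array of vehicle 3, so that the ratios of this mouse and the ranges that rest on it are approximate; without vehicle 3 the ranges were 15.4-fold for Saa1 and 15.6-fold for Saa2. The SDs of the reference channel were 0.29, 0.34 and 0.36, above the median of all probes. Saa4 behaved differently from these 3 family members, with ratios of -0.09, -0.02, -0.06, -0.14, 0.00 and -0.46 and an SD of 0.17.

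Other acute phase and complement genes spread less, and mostly through 1 mouse. The 11 had a median SD of 0.37 (all probes: 0.25), and 0.19 without vehicle 5 (all probes: 0.20), and vehicle 5 was the highest mouse for 7 of them (all probes: 32.3%) and for 4 when the arrays were shifted on the spike-ins in place of loess (all probes: 11.8%). Hpx, which carries free haem in plasma, had ratios of -0.77, -0.56, -1.23, -0.94, 0.39 and -0.70 (SD 0.55, 0.26 without vehicle 5), with vehicle 5 above the other 5 mice. The complement component C9 showed the same shape, at -0.02, -0.06, -0.47, -0.04, 0.93 and -0.23 (SD 0.48, 0.19 without vehicle 5), as did Fgb (fibrinogen beta chain) at -0.65, -0.31, -0.31, -0.64, 0.28 and -0.34 (SD 0.34, 0.18 without vehicle 5, and 0.35 in the reference channel), for which vehicle 5 was not the highest mouse after a shift on the spike-ins or in the deposited table. Serping1, the inhibitor of complement C1, was at -0.83, -0.36, -0.49, -0.38, 0.41 and -0.98 (SD 0.49, 0.28 without vehicle 5), with vehicle 5 the only mouse above 0, though not the highest in the sample channel alone.

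Orm1 and C3 went another way. Orm1 was at -0.70, -0.30, -0.89, -0.97, -0.61 and -1.40, with vehicle 2 highest and vehicle 6 lowest, and C3 at -0.06, 0.23, -0.21, -0.54, 0.06 and -1.05, again with vehicle 2 highest and vehicle 6 lowest. Their reference spots were saturated on the arrays of vehicle 1, 2 and 3 (and of vehicle 4 for Orm1) and not on those of vehicle 5 and 6; the part of this in the order of the mice was not tested. Crp, which in mice responds little to inflammation, had the narrowest spread of the list (SD 0.12, 0.05 without vehicle 5). Stat3, which carries the interleukin 6 signal to acute phase genes, was at -0.51, -0.05, -0.31, -0.39, 0.63 and -0.56 (SD 0.44, 0.20 without vehicle 5), and Nfkbia, the inhibitor of NF-kB, at -0.82, -0.23, -0.34, -0.49, 0.19 and -0.38. Both were highest in vehicle 5 (all probes: 32.3%), except Nfkbia after a shift on the spike-ins (all probes: 11.8%). They were 2 of the 4 cytokine, NF-kB and stress kinase genes above background in every mouse. The others, Mapk8 (SD 0.12) and Mapk9 (SD 0.11, at -0.12 in vehicle 5), were not highest in vehicle 5. Whether the livers differed in inflammatory cells was not tested.

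**Figure D4:**
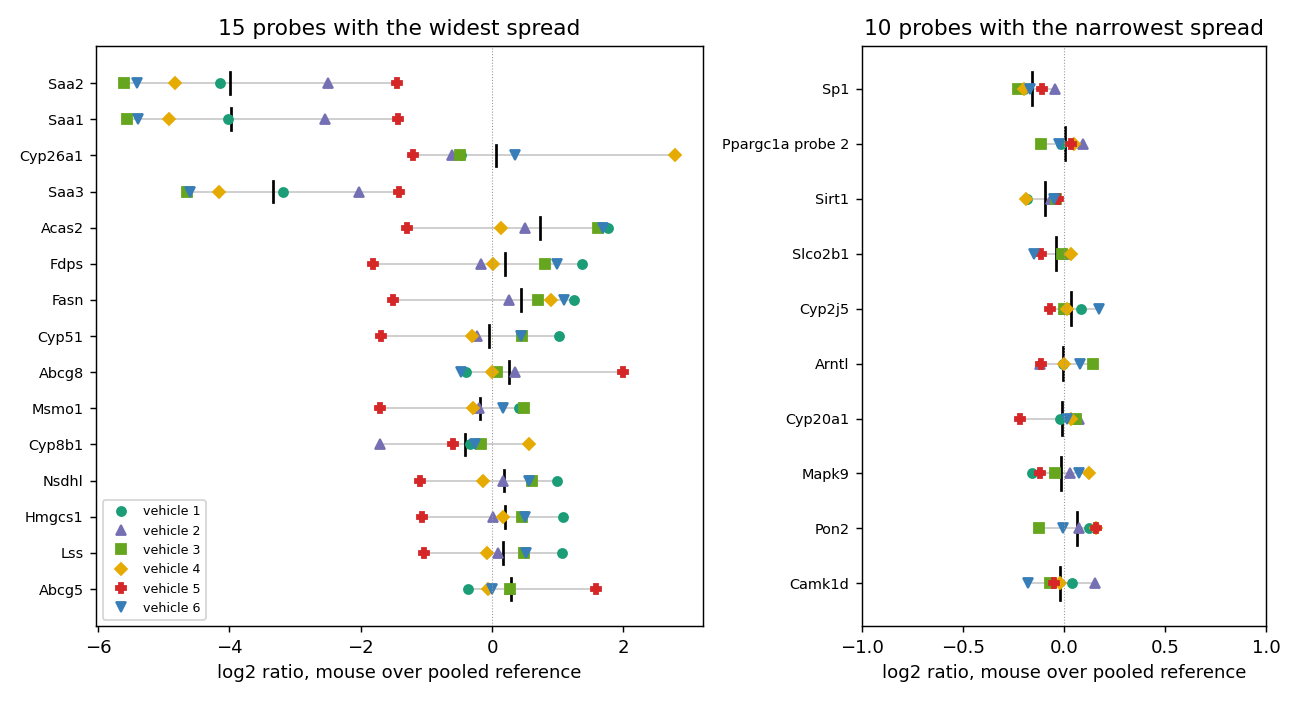
Log2 ratios of each vehicle mouse over the pooled reference (x) for the 15 probes with the widest and the 10 with the narrowest spread; symbols are mice and the upright bars their means. Vehicle 5 lies at an end for 14 of the 15 widest probes and for 105 of all 161, and the 15 were chosen by an SD that includes this mouse. All 6 mice lie within 0.33 of each other for the 10 narrowest.

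Genes of cholesterol synthesis varied together. Of the 18 on the array 15 were above background in every mouse, their median SD was 0.49 against 0.25 for all probes, and 12 of the 15 spread more than that overall median. Vehicle 5 was the lowest mouse for 12 of the 15 (for 10 to 12 under the other scalings that kept all 15) and vehicle 1 the highest for 9. Over all probes vehicle 5 was lowest for 32.9% and vehicle 1 highest for 21.7%. The highest mouse depended on the scaling: vehicle 1 was it for 5 of the 15 after median centring and for 0 after a shift on the spike-ins (all probes: 5.59% and 0.621%). The mean ratio of the 15 genes was 0.65, -0.06, 0.40, 0.01, -0.77 and 0.36 in vehicle 1 to 6. Without vehicle 5 their median SD was 0.35, still above the 0.20 of all probes without that mouse.

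At the head of the pathway Hmgcs1 was at 1.08, 0.02, 0.46, 0.17, -1.06 and 0.49 (SD 0.71, 0.41 without vehicle 5), with vehicle 1 highest and vehicle 5 lowest. Mvd, which makes isopentenyl diphosphate, was at 0.57, -0.20, 0.68, 0.04, -0.99 and 0.45 (SD 0.62, 0.37 without vehicle 5). Fdps, which makes farnesyl diphosphate, had the widest spread of the list. Its ratios were 1.37, -0.16, 0.80, 0.01, -1.82 and 1.00 (SD 1.15, 0.65 without vehicle 5), a 9.1-fold range, with vehicle 1, 6 and 3 above and vehicle 5 far below 0. Fdft1, the squalene synthase, was at 0.49, -0.06, 0.51, -0.14, -0.76 and -0.12.

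Among the enzymes that follow squalene, the cyclase Lss was at 1.06, 0.08, 0.48, -0.07, -1.03 and 0.52 (SD 0.71, 0.44 without vehicle 5). The demethylase Cyp51 was at 1.02, -0.23, 0.45, -0.30, -1.69 and 0.45 (SD 0.94, 0.55 without vehicle 5). Msmo1 and Nsdhl, which remove further methyl groups, were at 0.42, -0.19, 0.49, -0.30, -1.71 and 0.16 and at 0.99, 0.17, 0.61, -0.14, -1.09 and 0.57, with SDs of 0.81 and 0.74 that were 0.35 and 0.43 without vehicle 5. In all 4 genes vehicle 5 was the lowest and vehicle 1 or 3 the highest mouse, although in the sample channel alone vehicle 5 was not the lowest for Lss. The last steps varied less: the SD was 0.38 for Sc5d, 0.38 for Dhcr7 (0.25 without vehicle 5) and 0.15 for Ebp, which had the narrowest spread of the list.

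Idi1 and Acat2 stood outside the pattern. Idi1, which isomerises isopentenyl diphosphate, was at 0.12, 0.03, 0.16, 0.00, 0.24 and 0.64 (SD 0.23), with vehicle 6 highest and vehicle 5 not low. Acat2, which condenses acetyl-CoA, was at 0.25, -0.24, -0.28, 0.00, 0.10 and 0.11 (SD 0.21). Mvk was above background in 5 mice and Pmvk in none.

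**Figure D5:**
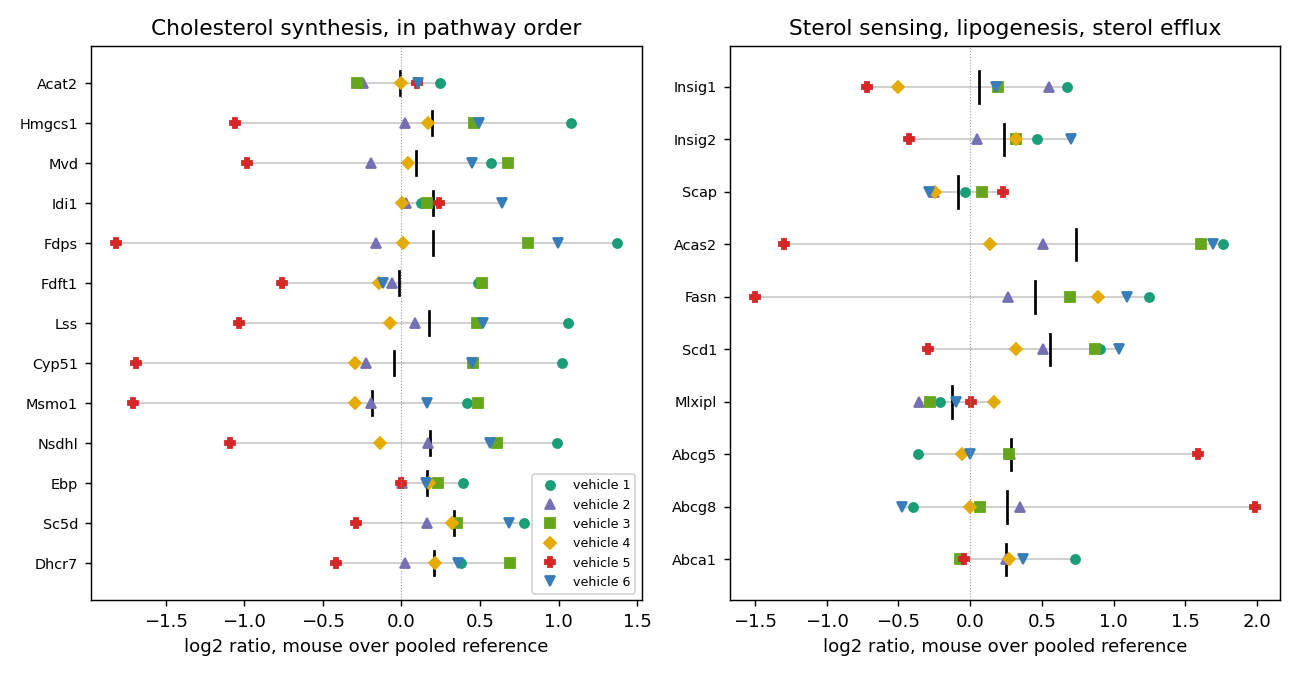
Log2 ratios of each vehicle mouse over the pooled reference (x) for 13 genes of cholesterol synthesis in pathway order (left) and for genes of sterol sensing, lipogenesis and sterol efflux (right); symbols are mice and the upright bars their means. Vehicle 5 is lowest for Hmgcs1, Fdps, Cyp51, Acas2 and Fasn and highest for Abcg5 and Abcg8.

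Sterol-sensing genes partly followed. Insig1, itself a target of SREBP, was at 0.68, 0.55, 0.19, -0.50, -0.72 and 0.18 (SD 0.56), with vehicle 5 and vehicle 4 low; which of these was the lowest depended on the scaling, and vehicle 5 was it in 4 of 7 settings. Insig2 was at 0.47, 0.05, 0.32, 0.32, -0.43 and 0.70 (SD 0.39, 0.24 without vehicle 5), with vehicle 5 the lowest mouse. Scap spread less (SD 0.21). The probes of the SREBP factors themselves, Srebf1 and Srebf2, were above background on no array, which does not show that the transcripts were absent.

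Abcg5 and Abcg8 were highest in vehicle 5, the mouse in which most synthesis genes were lowest. Abcg8 was at -0.40, 0.35, 0.07, 0.00, 1.99 and -0.48 (SD 0.90) and Abcg5 at -0.36, 0.27, 0.27, -0.06, 1.58 and 0.00 (SD 0.68). Vehicle 5 lay 1.31 above the next mouse for Abcg5 and 1.64 above it for Abcg8 on the log2 scale. Without it the SDs were 0.27 for Abcg5 and 0.34 for Abcg8, while the reference channel had 0.10 and 0.32. Abca1, the exporter to HDL, did not share this shape: at 0.73, 0.25, -0.07, 0.27, -0.04 and 0.37, vehicle 1 was its highest mouse. Scarb1, the HDL receptor, was at -0.29, -0.09, -0.27, -0.08, 0.63 and -0.99 (SD 0.52), with vehicle 5 highest and vehicle 6 lowest. The narrowest spread among the transporters was that of Slco2b1 (SD 0.07), and Abcb11, the bile salt export pump, had 0.18.

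Some genes of lipogenesis, gluconeogenesis and fatty acid oxidation also separated vehicle 5. Fasn, the fatty acid synthase, was at 1.25, 0.27, 0.70, 0.89, -1.50 and 1.10 (SD 1.01), so that 5 mice lay above 0 and vehicle 5 far below. Scd1 was at 0.90, 0.51, 0.87, 0.32, -0.30 and 1.04 (SD 0.50, 0.30 without vehicle 5), with vehicle 5 again the only mouse below 0; its reference spots were saturated on the arrays of vehicle 1, 2 and 3 and not on that of vehicle 5. Acas2, named as in the files because this older symbol matches more than 1 gene, was at 1.76, 0.51, 1.61, 0.14, -1.30 and 1.69 (SD 1.20, 0.76 without vehicle 5), with vehicle 1, 3 and 6 close together at the top.

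Mlxipl (ChREBP, a glucose-responsive activator of lipogenesis) spread little (SD 0.19). The gluconeogenic gene Pck1 was at -0.59, 0.05, -0.51, -0.29, 0.71 and -0.27 (SD 0.48, 0.25 without vehicle 5), with vehicle 5 highest except in the sample channel alone. G6pc, which releases glucose, was at 0.01, -0.17, -0.73, 0.15, 0.63 and 0.63 (SD 0.52), with vehicle 5 and 6 level at the top and vehicle 3 lowest. Cpt1a, which admits fatty acids to mitochondria, was at -0.21, -0.13, -0.28, -0.06, 0.62 and -0.65 (SD 0.41, 0.23 without vehicle 5), with vehicle 5 highest.

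Cyp8b1 set vehicle 2 apart instead. This enzyme, which directs bile acid synthesis to cholic acid, was lowest in vehicle 2, at -0.33, -1.71, -0.17, 0.56, -0.60 and -0.26 (SD 0.74), and its intensity there was 248 against 862 to 1350.0 in the other mice. The SD was 0.82 without vehicle 5 and 0.43 without vehicle 2. Nr1d2 (REV-ERB beta), a clock repressor whose transcript cycles daily, was at -0.48, 0.89, -0.04, -0.35, 0.63 and -0.40 (SD 0.58), with vehicle 2 and vehicle 5 above the other 4. The other enzymes of bile acid synthesis above background in all mice were steadier, with SDs of 0.26 (Cyp27a1), 0.36 (Cyp39a1, 0.19 without vehicle 5) and 0.18 (Cyp7b1, 0.11 without vehicle 5). The reference channel of Cyp27a1 spread by 0.44, more than its ratio.

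Cyp26a1 stood far above the other mice in vehicle 4. It had log2 ratios of -0.47, -0.61, -0.49, 2.79, -1.21 and 0.35 (SD 1.42, 1.43 without vehicle 5 and 0.56 without vehicle 4), a 15.9-fold range. Its intensities were 125, 81.7, 91.7, 1539.7, 109.7 and 403, so that it was the 52nd brightest probe in vehicle 4 and as low as the 186th elsewhere. Vehicle 6 was second, and the other 4 mice lay below 0. The SD of its reference channel was 0.25 and that of its spots 0.08. Of the other enzymes that act on retinoids or vitamin D, Cyp24a1 was above background on 1 array and Cyp26b1 and Cyp27b1 on none.

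Drug-metabolising cytochromes P450 were bright, with a spread like that of all probes. The 15 above background in every mouse had a median SD of 0.24 (all probes: 0.25), and none exceeded 0.5. The widest was Cyp3a41a, at 0.49, 0.27, 0.44, 0.45, -0.39 and 0.28 (SD 0.33), where 5 mice lay close together and vehicle 5 below them; its SD without vehicle 5 was 0.10, and vehicle 5 was not the lowest in the sample channel alone. Its reference was saturated on every array but that of vehicle 6. Cyp2b13 had the same shape, at 0.38, 0.45, 0.26, 0.42, -0.30 and 0.23 (SD 0.28, 0.10 without vehicle 5). All 5 genes known as higher in female liver were lowest in vehicle 5 (all probes: 32.9%). Their mean ratio was -0.12 there against 0.35 to 0.45 in the other mice. With median centring or the spike-ins in place of loess only 2 of the 5 were lowest there (all probes: 24.2% and 21.7%). In the sample channel alone 1 was (all probes: 19.3%). Of the 2 genes on the array listed as higher in male liver, only Cyp7b1 was above background in every mouse. It too was lowest in vehicle 5 (-0.39). The narrowest of the 15 was Cyp2j5, at 0.08, 0.00, 0.00, 0.02, -0.07 and 0.17 (SD 0.08). Nr1i3 (CAR), which controls several of these enzymes, had an SD of 0.17, and Alas1, the first enzyme of haem synthesis, 0.28.

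The 10 narrowest spreads after loess belonged mostly to regulators of moderate or low brightness, and their SDs depended on the scaling. Sp1, a general transcription factor, was at -0.20, -0.04, -0.23, -0.20, -0.11 and -0.17 (SD 0.07), followed by probe 2 of Ppargc1a (PGC-1 alpha) at 0.07, Sirt1 at 0.07 and Slco2b1 at 0.07. The rest of the 10 were Cyp2j5, Arntl, Cyp20a1, Mapk9, Pon2 and Camk1d, with SDs up to 0.11. In this group, chosen for narrow ratios, the reference channel spread by 0.06 to 0.43, more than the ratio for 9 of the 10 probes. After a shift on the spike-ins the SDs of these 10 were 0.30 to 0.44, 0.23 to 0.41 in the deposited values, 0.13 to 0.39 in the sample channel alone and 0.11 to 0.21 after median centring. With plain subtraction of background they were 0.08 to 0.16. The 9 nuclear receptors and coregulators above background in every mouse had a median SD of 0.18. Vehicle 5 was the highest mouse for 7 of these 9 and vehicle 6 the lowest for 8, against 32.3% and 20.5% of all probes, but these counts were 3 and 0 when the arrays were shifted on the spike-ins (all probes: 11.8% and 0%). Hnf4a was the widest, at 0.12, -0.07, -0.51, 0.09, 0.16 and -0.62 (SD 0.34, and 0.44 in the reference channel).

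The common reference genes were not the steadiest. Probe 1 of Actb (beta-actin) had an SD of 0.38 and probe 1 of Gapdh 0.28 (0.49 in the reference channel), both above the median of all probes and both highest in vehicle 5, although for Gapdh this held in 4 of 7 settings. Probe 2 of Actb had 0.22 and probe 2 of Gapdh 0.16, so that the probes of a gene disagreed, and the latter was lowest in vehicle 5 (0.12 against 0.28 to 0.54). By contrast, Ppia (cyclophilin A) had 0.16. Tbp, also used for normalisation, was above background on no array. When the 161 probes were split by brightness, the median SD was 0.25 for the 53 brightest probes, 0.26 for the 54 in the middle and 0.19 for the 54 dimmest. The offset of 50 in the background correction narrows the ratios of dim probes most, so these medians are not a property of the genes alone. With plain subtraction of background 29 probes in place of 22 had an SD over 0.5, and the split was not repeated.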

How the data were processed

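Liver RNA of 18 mice was hybridised to 2-colour arrays, of which the 6 vehicle arrays were used and the 12 statin arrays were not. Per the file headers the deposited intensities are linear median values for a spot and its surrounding background, in both channels, without subtraction. Scanner and image software are not stated in these sources. The layout had 1440 spots, 870 of them for 289 gene probes, 288 of which had 3 spots. A table of log2 values was deposited too, with its steps not stated. It served as an alternative, and per array it correlated with the ratios computed here (Pearson r across probes 0.938 to 0.998), with column medians of -0.32 to 0.56.

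In R 4.3.3 with limma 3.58.1, background was corrected by normexp with an offset of 50, loess normalisation was done array by array, giving control spots a weight of 0, and spots of a probe were averaged. For the spread of single channels, Aquantile normalisation followed. Ranks used the mean over spots of sample intensity minus background. Tables and figures were made in Python 3.11.15. The scripts were tested on simulated data. Of the gene probes, 211 names matched a RefSeq symbol (GRCm38.p6), 50 an older symbol and 11 another spelling, 7 matched several genes, 5 none, and 5 were human probes.

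No groups were compared and no p-value was computed. The 6 labels name separate mice. No dye was swapped, so a dye effect enters each ratio. It stays out of the spread only if it is equal on all arrays, which was not tested. The spot count limits the precision of each value. Genes were named by rule: the 15 brightest probes, the 15 with the widest and 10 with the narrowest spread, and in each gene list the brightest, dimmest, widest and narrowest members and all of the cholesterol synthesis, serum amyloid A and marker lists; Nr1d2, C9, Nfkbia, Abca1, Abcb11, Cyp39a1 and other members of these lists were added after their values were seen. The members and lists were chosen with earlier results of these data known. A few genes covered by this rule are not reported here. Alternatives changed the background limit, the background correction, the scaling, the filter, the measure of spread and the mice used, and the 4 arrays with the same background ring area (197 pixels) were also taken alone.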

Additional observations from a re-analysis of the deposited data

Results flagged for a closer look

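For each named gene above background on all arrays, the highest or lowest mouse was set against the other 5, and a gap that, divided by the whole range, exceeded Dixon's critical value for 6 samples was taken as far out. Chance alone marks about 1 in 20 groups of this size. Of the 84 named genes 12 met it, and of all 161 probes 20 (12.4%), of which 12 through vehicle 5.

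Vehicle 5 was the far mouse for 9 of the named genes. It was high for Abcg5 (1.58, next mouse 0.27), Abcg8 (1.99, next 0.35), Fgb (0.28, next -0.31) and Crp (-0.010, next -0.22). It was low for Fasn (-1.50, next 0.27), Msmo1 (-1.71, next -0.30), Cyp3a41a (-0.39, next 0.27), Cyp2b13 (-0.30, next 0.23) and Cyp20a1 (-0.22, next -0.02). The array of vehicle 5 as a whole was also far out in the median distance of its probes from their mean over the other mice (0.33).

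Vehicle 6 was far out for Saa4 (-0.46, next -0.14), whose reference was saturated on the arrays of vehicle 1, 2 and 3, and for Idi1 (0.64, next 0.24), and vehicle 4 for Slc2a4 (-0.34, next -0.08). Slc2a4 is a dim probe with an SD of 0.12 between mice, close to the 0.13 of its spots.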

How the results depend on the processing

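The number of probes above background on all arrays was 132 to 188 when the limit was moved from 3 SDs to 1 SD, 141 when all spots had to meet it, and 161 to 166 with 1 mouse left out; the median number per array was 162 to 215.5 and 179 with 1 mouse left out. Of the 15 brightest probes 14 to 15 kept their place in every setting tried. The median SD of 0.25 was 0.45 when the arrays were shifted on the spike-ins in place of loess and 0.43 in the deposited table, and the 22 probes with an SD over 0.5 became 55 and 42; the deposited table holds 6 values for 146 of the 161 probes. With 1 mouse left out the median SD was 0.20 to 0.25, the count of probes over 0.5 was 9 (without vehicle 5) to 28, and 9 (without vehicle 5) to 15 of the 15 widest probes remained among the 15 widest. The median SD of the reference channel was 0.17 to 0.24 with 1 mouse left out. Vehicle 5 was the lowest mouse for 12 of 15 cholesterol synthesis genes, for 12 to 13 with another mouse left out, and for 7 of the 11 with 6 values in the deposited table. By the range 15 and by the median absolute deviation 11 of the 15 widest probes were the same. On the 4 arrays of one background ring area, chosen after seeing the data, the median SD was 0.25 and 29 probes exceeded 0.5. For the SDs of the 25 widest and narrowest probes, 55 of 396 alternative values moved by more than 1.5 times, 17 of them downwards, and 11 of the 55 came from leaving out vehicle 5. The causes were not tested. No paired analysis was possible because only 1 group was described and no value comes from a test between groups. Saturated reference spots and dim probes near background limit the precision of single ratios.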

Other observations

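Beside the genes named in the report, a human TUBB2B probe was above background in every mouse. Its log2 ratios were 1.06, -0.13, 0.24, 0.37, -0.62 and 0.90 in vehicle 1 to 6 (SD 0.63), the 16th widest spread, and what mouse transcript it binds is not given in the files. Pklr, the liver pyruvate kinase, was at 0.35, 0.06, 0.30, 0.30, -0.39 and 0.87 (SD 0.41), with vehicle 6 highest and vehicle 5 lowest. Apcs (serum amyloid P) was lowest in vehicle 4, at -1.38, against -0.89 to -0.31 in the other mice. Both were picked after their values were seen.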
